A study of Schizosaccharomyces pombe with 16 samples.

Results

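Intergenic non-coding RNAs of the fission yeast Schizosaccharomyces pombe were followed through 4 carbon conditions in wild type cells and in cells that lack the glucose repressor Scr1. They were chosen by position alone. Of the 1542 features of the count table whose name starts with SPNCRNA, the 433 whose span overlapped no protein-coding feature on either strand were taken, and no measured value entered that choice. The other 1109 overlap a coding gene. The table held 7019 features in all, 5172 of them protein-coding. Of the 433 RNAs, 355 had enough counts to be tested, 78 did not, and 6 of those had no count in any library.

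Fission yeast transcribes much of the DNA between its genes. Some of these RNAs start in the same gap in the nucleosomes as a coding gene and run away from it, in the divergent orientation, while others run towards a gene on the same strand and can cross its promoter. A well studied case lies upstream of fbp1, which encodes the gluconeogenic enzyme fructose-1,6-bisphosphatase. There, long non-coding RNAs are transcribed as glucose runs out and the chromatin of the promoter opens. Carbon catabolite repression is the silencing of genes for poorer carbon sources while glucose is at hand, and Scr1, a zinc-finger protein, is one of its repressors.

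Ribosomal RNA-depleted total RNA was sequenced from 16 cultures. Wild type cells, labelled h-, were sampled in YES medium with 3% glucose, with 3% sucrose, with 3% glycerol plus 0.1% glucose (glucose-deficient) and with 3% glycerol (glucose-starved), 2 libraries each. The scr1- mutant, sampled in glucose and in sucrose with 4 libraries each, was a disruption (scr1::ura4+, labelled h- and carrying ade6-m216, leu1-32 and ura4-d18, 2 libraries per medium) and 2 deletion strains (scr1::kanMX6+, 1 library each per medium), pooled as the study pooled them. The labels give the same strain for every disruption library and the same for every wild type library, whereas the study's methods name a pair of strains for each. Every culture, wild type or mutant, spent 4 h in 3% glucose at 32 °C before washing and 4 h in its final medium. In RNA from whole cultures, less RNA in every cell and fewer cells that make it cannot be told apart.

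The libraries came from 3 batches, and none of the batches held every group. Batch A (unstranded) and batch B (stranded) each held wild type and scr1::ura4+ cells in glucose and in sucrose. Glucose-deficient cells were in batches A and C, glucose-starved cells in B and C, and the deletion strains in C alone (stranded), without wild type cells in glucose or sucrose beside them. The batch term reached an adjusted p under 0.05 for 177 of the 355 RNAs. Reads that overlapped several features were counted for each. Of the 433 RNAs, 190 overlap another non-coding feature on either strand and 93 overlap one on the same strand. Overlap on the same strand can share reads in every batch, and overlap with a feature on the opposite strand in batch A alone. Total counts ran from 14305848 to 18607823 per library, and a count of 0 allows a level of up to 0.145 to 0.263 CPM (counts scaled to a common library total), counting error only. Further checks bear on the labels. The mating-type feature SPMTR.04 stood at 9.38 to 77.8 CPM in 14 libraries and at 0 in the scr1::ura4+ libraries of batch B, whereas SPMTR.01 reached 7.19 and 7.93 CPM in those libraries and at most 0.161 CPM elsewhere. These 2 libraries therefore stand apart from the other libraries labelled h-, and the counts of mutant calls are given with and without them. Whether they come from the other disruption strain was not tested. Transcripts of scr1 itself were higher in the mutants (88.8 to 125 CPM) than in wild type glucose or sucrose (20.8 to 35.7 CPM). The counted scr1 feature includes parts that a disruption or deletion can leave in place, so its level does not check the mutation.

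The DNA around the start of an RNA is where its transcription is set, and 4 starts are shown because the RNAs they give recur below: SPNCRNA.603 and fbp1-ot2 had the largest rises on glucose starvation, omt3 (SPNCRNA.130) the largest rise in the scr1- mutant, and SPNCRNA.780 fell in the mutant in both media. Each window runs from 250 bases before to 50 bases after the first base of the RNA, read 5′ to 3′ along the RNA, from the RefSeq genome (ASM294v3), where these RNAs have the same start and end as in the count table. Capitals mark TGACGT, the core of the site of the stress factors Atf1 and Pcr1, CCAAT, the box of the Php complex, CCCCTC, the stress response element read by Rst2, and the hexamers of the CreA type that Mig1-like repressors such as Scr1 read (GCGGAG or GCGGGG, with GTGGAG or GTGGGG, with CCGGAG or CCGGGG, and with CTGGAG or CTGGGG as the other forms), each on either strand.
SPNCRNA.603 (chrI:82296-82595, minus strand): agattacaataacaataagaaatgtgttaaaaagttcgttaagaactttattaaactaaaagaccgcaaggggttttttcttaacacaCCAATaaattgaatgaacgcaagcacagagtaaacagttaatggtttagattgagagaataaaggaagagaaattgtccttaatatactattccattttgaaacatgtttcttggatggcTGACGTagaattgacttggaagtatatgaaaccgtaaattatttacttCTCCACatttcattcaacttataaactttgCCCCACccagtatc
fbp1-ot2 (chrII:201763-202062, minus strand): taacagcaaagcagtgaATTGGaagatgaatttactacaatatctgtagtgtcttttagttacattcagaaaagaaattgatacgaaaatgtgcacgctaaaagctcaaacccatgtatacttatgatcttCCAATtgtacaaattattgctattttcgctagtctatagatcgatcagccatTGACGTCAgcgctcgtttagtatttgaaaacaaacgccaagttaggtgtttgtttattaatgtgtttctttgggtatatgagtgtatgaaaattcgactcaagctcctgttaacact
omt3 (chrI:4515820-4516119, plus strand): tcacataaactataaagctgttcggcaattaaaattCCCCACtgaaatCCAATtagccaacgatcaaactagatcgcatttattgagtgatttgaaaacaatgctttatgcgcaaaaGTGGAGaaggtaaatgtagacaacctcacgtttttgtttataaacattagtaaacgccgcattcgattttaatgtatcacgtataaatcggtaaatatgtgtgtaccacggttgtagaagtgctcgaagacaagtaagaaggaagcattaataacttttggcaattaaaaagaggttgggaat
SPNCRNA.780 (chrI:1954137-1954436, minus strand): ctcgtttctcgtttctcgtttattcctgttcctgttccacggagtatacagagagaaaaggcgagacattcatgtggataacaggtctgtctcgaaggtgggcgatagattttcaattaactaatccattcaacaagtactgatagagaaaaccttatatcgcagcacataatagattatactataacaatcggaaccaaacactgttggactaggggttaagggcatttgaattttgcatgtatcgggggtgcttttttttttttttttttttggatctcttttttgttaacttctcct
Counting the first base of the RNA as 1, the SPNCRNA.603 window held TGACGT at -42, CCAAT at -162 and CreA-type hexamers at 7 and 37. That of fbp1-ot2 held TGACGT at -67, overlapped by its copy on the other strand at -65, and CCAAT at -233 and -119. The omt3 window held CCAAT at -202 and CreA-type hexamers at -214 and -133, and the SPNCRNA.780 window held none of these letters.

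Over the 368 intergenic RNAs with the same coordinates in the reference, 8.97% of the windows held TGACGT, 4.35% CCCCTC, 37.5% CCAAT and 20.9% a CreA-type hexamer. The same window at 5112 coding genes held them in 5.91%, 2.11%, 42.2% and 18.9%. Among the 81 of these RNAs that rose on glucose starvation the shares were 14.8% for TGACGT (12 windows), 8.64% for CCCCTC (7 windows), 44.4% for CCAAT (36 windows) and 24.7% for the CreA type (20 windows). Among the 65 that fell they were 7.69%, 3.08%, 35.4% and 13.8%. These are counts of letters, which do not show that a factor binds there.

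The 433 RNAs lay on chromosomes I (193), II (164) and III (76) and measured 56 to 5123 bases, with a median of 605. The gap to the nearest coding gene had a median of 238 bases and was at most 500 bases for 312 of them. That gene was divergent for 179 RNAs, downstream on the same strand for 136, upstream on the same strand for 62 and convergent for 56. Levels were low beside those of coding genes. Per kilobase of length, the median RNA stood at 3.33 CPM in wild type glucose against 27.2 for the median coding gene. The medians were 3.62 in sucrose, 2.05 in glucose-deficient and 2.43 in glucose-starved cells, and 1.95 in glucose and 2.03 in sucrose for the scr1- mutant, while the coding median stayed between 27.1 and 28.2. These medians are not adjusted for batch, and the groups differ in their batches. Within a batch, the median log2 difference from wild type glucose was 0.27 in glucose-starved cells (B) and -0.42 in glucose-deficient cells (A). For the mutant in glucose it was -0.29 (A) and -0.46 (B). Together the 433 RNAs took 0.28% to 0.344% of all counts in the wild type glucose libraries, 0.339% to 0.453% in the glucose-starved and 0.171% to 0.232% in the glucose-deficient libraries. The glucose-deficient libraries had the lowest share of the wild type groups and did not overlap the others.

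Some of the most abundant RNAs rested on repeats or on 1 batch. SPNCRNA.1094 (536 CPM per kilobase in wild type glucose) and SPNCRNA.1095 (284) lie side by side near the end of chromosome III, and all of their 50-base stretches occur elsewhere in the genome, where their reads were counted again. snoR61, a small nucleolar RNA, came next. SPNCRNA.129, 83 bases long and 112 bases past the 3′ end of ura4, stood at 15.3, 14.5 and 16.8 CPM in the wild type libraries of batch A and at 0 to 0.108 CPM in every other library. Its high values are thus confined to wild type cells of the unstranded batch, and its fall in the mutants (edgeR adjusted p = 0.0277 in glucose and 0.0324 in sucrose) rests on that batch alone. The part of strain and library type in it was not tested.

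Glucose starvation raised 104 of the 355 intergenic RNAs tested and lowered 74, where a call needs an adjusted p under 0.05 and a fold change of more than 1 on the log2 scale in edgeR's quasi-likelihood test with Benjamini-Hochberg adjustment over all 6691 features. That is 29.3% and 20.8% of them, against 20.7% and 20.0% of all features tested. Among the 174 tested RNAs that overlap no other feature the shares were 22.4% and 20.1%, near those of all features. The 1095 tested SPNCRNA features that overlap a coding gene rose in 31.8% and fell in 14.2%, so the share that rose was not particular to the intergenic RNAs. Within batch B, which held both media, all 104 were higher and all 74 lower. The libraries of such within-batch counts, here and below, also gave the calls, so the counts are not a separate test. The median log2 fold change over the RNAs was 0.30 (all features -0.02), and within batch B the median difference was 0.27 (all features -0.05). As plain differences in log2 CPM between the group means, with no batch term, the median was -0.36 (all features -0.27). The sign of this median thus depends on the adjustment for batch.

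**Figure D1:**
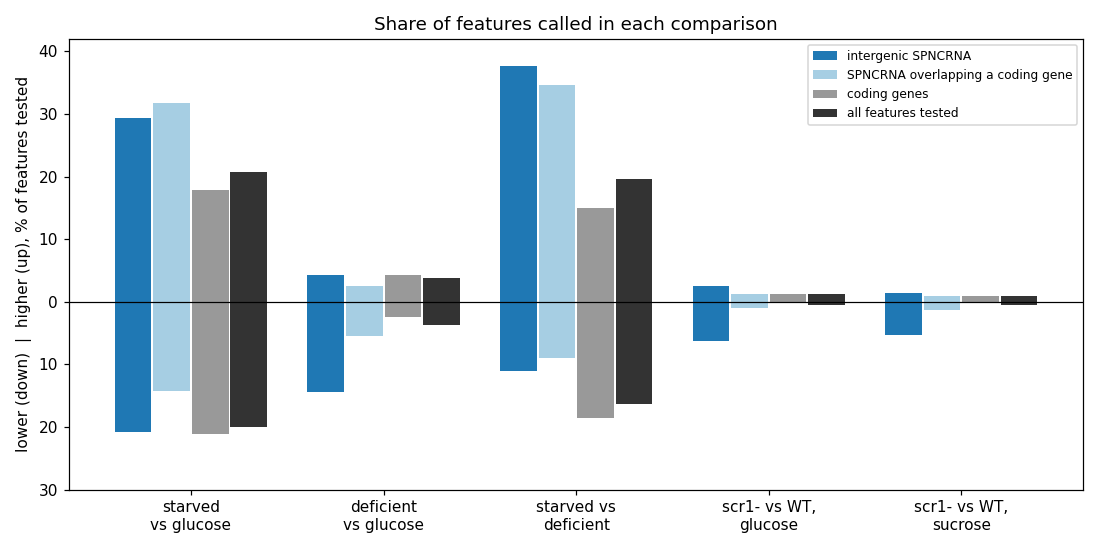
Bars give the percentage of tested features that were higher (up) or lower (down) in each comparison, for intergenic RNAs, SPNCRNA features that overlap a coding gene, coding genes and all features. In the glucose-deficient comparison 14.4% of the intergenic RNAs were lower against 3.71% of all features, and in both mutant comparisons more intergenic RNAs were lower than higher.

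The largest rise was that of SPNCRNA.603, an RNA of 878 bases at chrI:81468-82345 whose start lies 400 bases from the divergent gene ght3, which encodes a hexose transporter family member active on gluconate. It stood at 0.29 and 0.229 CPM with glucose and 198 and 145 CPM in glucose-starved cells. The starved libraries thus lay far above both glucose libraries, with a log2 fold change of 9.62 (SE 0.35, adjusted p = 7.8e-09), and the pooled counts, 4605 against 10, give a ratio of 667 (95% interval 362 to 1390, counting error only). ght3 rose with it, from 5.36 and 4.42 CPM to 759 and 787 CPM.

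fbp1-ot2 (SPNCRNA.1326, chrII:201348-201812) lies on the strand of fbp1, 1873 bases upstream of it, and divergent from wwm3 at a gap of 444 bases. It stood at 0.241 and 0 CPM in glucose and at 54.6 and 51.3 CPM after starvation. In glucose-deficient cells it was at 0.108 and 0.0699 CPM, so that all 14 libraries outside starvation were at or below 0.353 CPM. Its log2 fold change in starvation was 9.44 (SE 0.80, adjusted p = 2.09e-06, a counting ratio of 405, 173 to 1250). The gene fbp1 itself rose both in glucose-starved cells (log2 fold change 7.83, SE 0.85, adjusted p = 1.05e-05) and in glucose-deficient cells (3.97, SE 0.76, adjusted p = 0.00579), where fbp1 stood at 44.3 and 237 CPM. wwm3 rose by 9.28 in starvation and by 1.71 in glucose-deficient cells.

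SPNCRNA.30, divergent from the gene gto1, rose from 0.435 and 0.344 CPM to 29.7 and 213 CPM, with the 2 starved libraries far from each other but both above glucose (adjusted p = 7.02e-06). SPNCRNA.1255, convergent with wtf20 of the spore-killer family, rose by 8.59 (SE 1.33) and SPNCRNA.1122 by 8.02 (SE 0.76), the latter while its nearest gene SPCC794.06 moved by -0.15 (adjusted p = 0.525). SPNCRNA.1502 rose by 7.11 and SPNCRNA.1559 by 6.04. The call of SPNCRNA.1502 was lost in edgeR with no batch term (log2 fold change 4.46, adjusted p = 0.105). SPNCRNA.96 was at 0 in all 14 libraries outside starvation and at 1.54 and 3.51 CPM within it, at least 30.4-fold above a floor of 3 counts over the glucose libraries. Its call (adjusted p = 0.0194) was lost with DESeq2 (0.277) and without wild type glucose replicate 2 or glucose-starved replicate 1, both at an adjusted p of 1.0. Its divergent neighbour SPAC186.02c rose by 10.67 (SE 0.63).

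**Figure D2:**
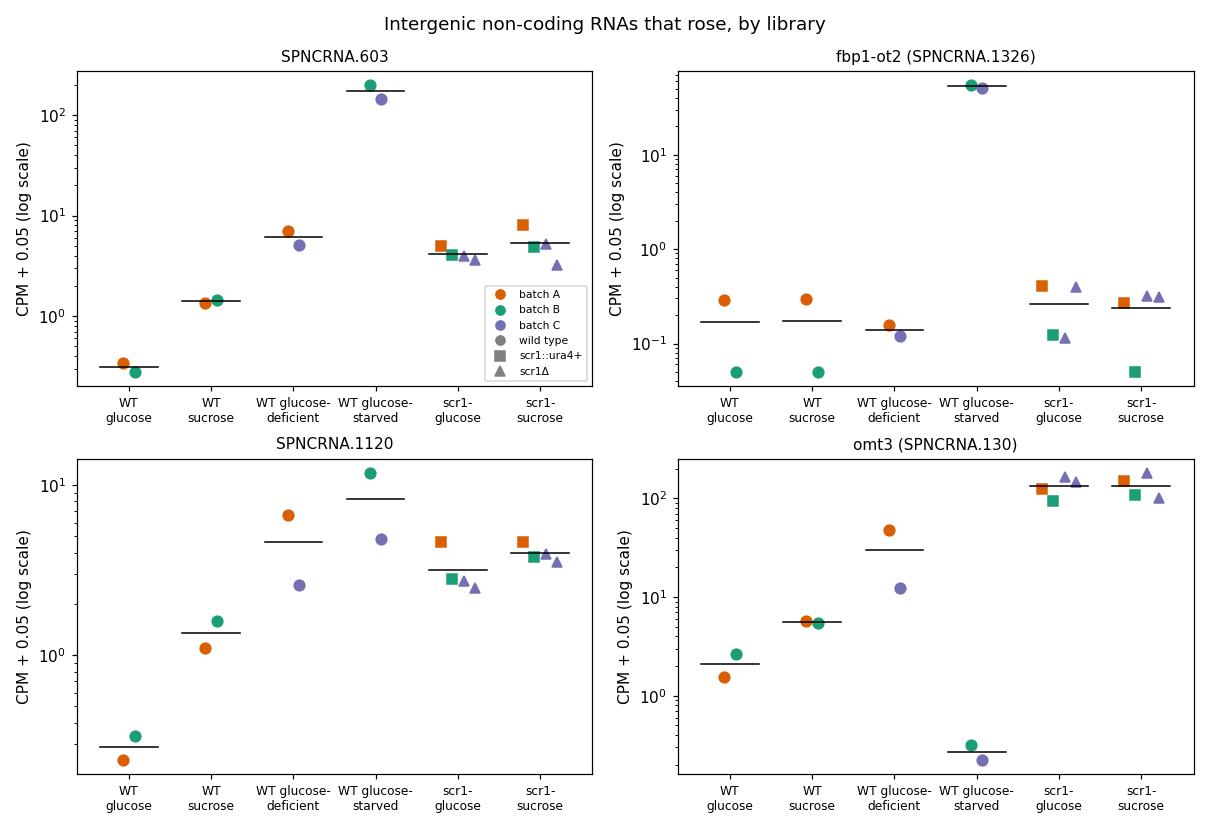
Each point is 1 library, with CPM plus 0.05 on a log axis, coloured by batch and shaped by genotype, and the bars are group means. SPNCRNA.603 climbs from glucose through sucrose and the glucose-deficient medium to starvation, fbp1-ot2 is high only in the starved libraries, and omt3 is near 0 in starvation and at 94.4 to 181 CPM in the scr1- mutants.

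Among the RNAs that fell on starvation, nam3 (SPNCRNA.1696) and SPNCRNA.532 overlap on the same strand and share reads. nam3 stood at 32.0 and 58.2 CPM in glucose and at 2.01 and 1.23 CPM after starvation, 2 groups that did not overlap (log2 fold change -4.61, SE 0.44, adjusted p = 4.61e-06). SPNCRNA.604 lies on the strand of str3, a siderophore-iron transporter gene, 380 bases upstream. It fell from 18.8 and 9.41 CPM to 0.268 and 0.175 CPM (log2 fold change -4.88, SE 0.64, adjusted p = 4.41e-05), while str3 fell by 4.94 on the log2 scale (SE 0.81). SPNCRNA.139, which lies within it on the opposite strand and shares its reads in batch A, fell too (log2 fold change -2.14). SPNCRNA.292 went from 1.11 and 2.24 CPM to 0.067 and 0 CPM beside the amino acid transporter gene aat1, which fell by 3.40. SPNCRNA.467, at 1.59 and 0.401 CPM in glucose and 0 in both starved libraries, fell at least 9.2-fold, with its call lost in DESeq2 (adjusted p = 0.0526) and without glucose-starved replicate 1 (0.238). SPNCRNA.277, SPNCRNA.1310 and SPNCRNA.264 fell by 4.57, 4.36 and 4.36.

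The nearest coding gene often moved the same way on starvation. Of the 104 RNAs that rose, 46 (44.2%) had a nearest gene that rose and 7 (6.73%) one that fell. Of the 73 RNAs that fell and whose nearest gene was tested, 27 (37.0%) had one that fell and 8 (11%) one that rose. For the 174 RNAs that were not called, the nearest gene rose in 21.3% and fell in 23.6%. The shares differed with orientation and with direction. Where the gene lay downstream on the same strand, 15 of 22 RNAs that rose (68.2%) had a partner that rose, against 12.3% for RNAs not called, while 5 of 24 that fell (20.8%) had a partner that fell, against 21.1%. For divergent RNAs the shares were 23 of 50 (46.0%, against 19.7%) among rises and 16 of 30 (53.3%, against 22.5%) among falls. Among RNAs placed after a gene on the same strand, 4 of 16 that rose had a partner that rose, against 51.9% of those not called. These shares count some genes more than once. With the gene downstream, sds23, mfc1 and pof11 repeat among the rises. Among divergent pairs SPAC27D7.11c repeats in the rises, and tif213, pyk1 and SPBPB2B2.05 in the falls. The 51.9% repeats genes too. SPNCRNA.230, SPNCRNA.231 and SPNCRNA.232 all have per1 (1.55), at gaps of 2000 to 11135 bases. SPNCRNA.359, SPNCRNA.360, SPNCRNA.361, SPNCRNA.362 and SPNCRNA.366 share a nearest-gene value of 2.04. Among convergent RNAs 4 of 16 that rose had a partner that rose, with cmt2 counted more than once, against 10.5%. Over all 351 pairs the fold changes of RNA and gene had a Pearson r of 0.49, with 0.60 for 151 divergent, 0.47 for 49 convergent, 0.41 for 103 with the gene downstream and 0.26 for 48 with the gene upstream. The r is a description across pairs that share libraries and in some cases a gene. In batch A, and for RNAs that run into a gene, shared reads and shared transcription cannot be told apart.

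**Figure D3:**
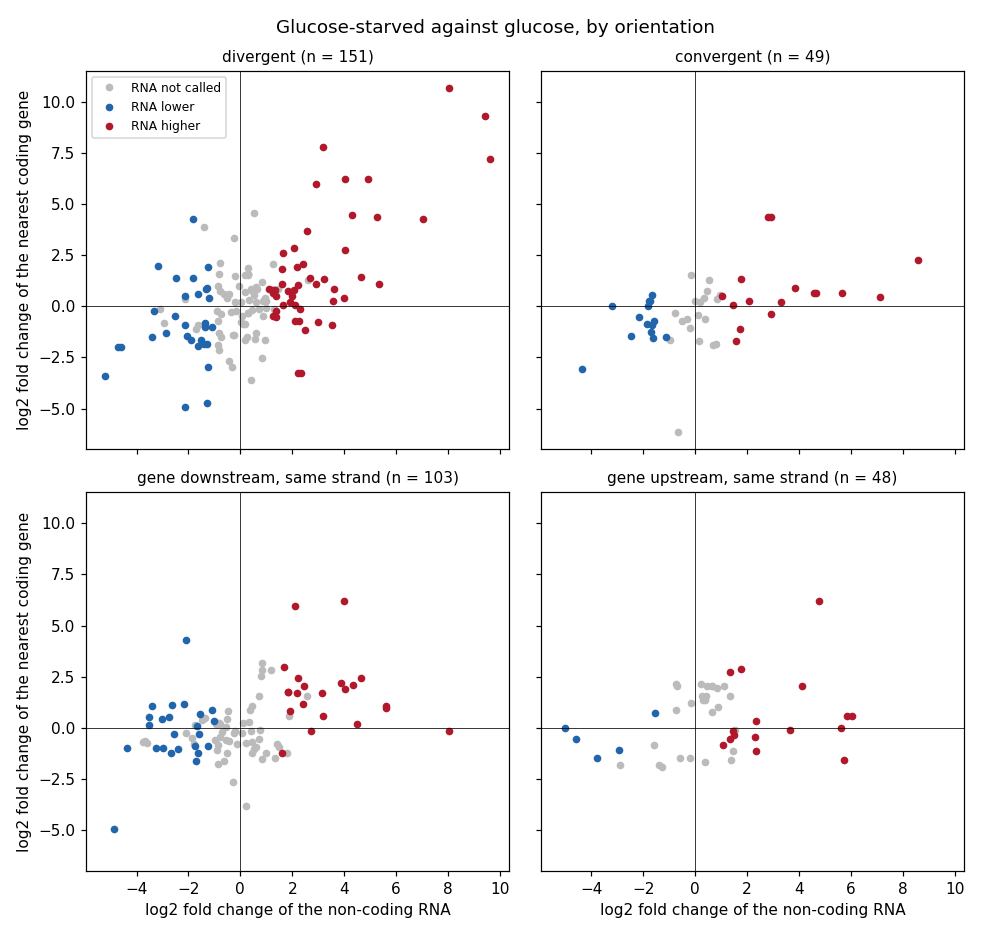
Log2 fold change of each intergenic RNA (x axis) and of its nearest coding gene (y axis) in glucose-starved against glucose cells, in 4 orientations, with RNAs that rose in red and those that fell in blue. In the divergent panel the points at the upper right are pairs such as SPNCRNA.603 with ght3 and fbp1-ot2 with wwm3, and on the same strand downstream most of the red points lie above 0.

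The pairs fell in several pathways. As a base for the list counts that follow, 20.7% of all features tested rose on starvation and 20.0% fell. Of 8 RNAs whose nearest gene belongs to the stress response, 7 were tested and 4 rose on starvation. SPNCRNA.1549, divergent from the glutathione peroxidase gene gpx1 at 100 bases, rose from 0.29 and 0.746 CPM to 13.2 and 10.5 CPM (log2 fold change 4.28, adjusted p = 1.58e-05), and gpx1 rose by 4.46. SPNCRNA.1540, which follows the small heat shock protein gene hsp16 at 38 bases, was at 0.628 and 0.115 CPM in glucose and at 7.44 and 0.438 CPM after starvation (log2 fold change 4.76, adjusted p = 0.00127). Its second starved library lay below the first glucose library, so these groups overlap. SPNCRNA.1058 and SPNCRNA.1059, opposite each other before the MAP kinase phosphatase gene pyp2, rose by 2.91 and 2.11 and pyp2 by 5.97, with reads of the pair mixed in unstranded libraries.

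Of 8 RNAs next to a gene of carbon metabolism, 5 were tested. SPNCRNA.603 and SPNCRNA.1120, next to hexose transporter genes, rose, and the overlapping SPNCRNA.941 and SPNCRNA.236, divergent from the pyruvate kinase gene pyk1, fell by 1.30 and 1.40 while pyk1 fell by 1.84. SPNCRNA.1460, next to scr1, was not called in any comparison. Of 5 RNAs next to genes of sexual differentiation, 3 rose in starvation: SPNCRNA.650 (3.21) beside ste7, SPNCRNA.993 (1.38) beside the meiosis regulator mei2 and SPNCRNA.539 (2.72) upstream of mam1. The genes mei2 and mam1 were not called in that comparison, at -0.24 and -0.16. Both RNAs next to the iron gene str3 fell, and of 7 tested next to nitrogen genes 1 fell, SPNCRNA.1442, at 41 bases from isp4.

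In the glucose-deficient medium most of the changes were falls. Only 15 of the 355 RNAs rose (4.23%, against 3.87% of all features) and 51 fell (14.4%, against 3.71%), with a median log2 fold change of -0.62 over the RNAs and -0.03 over all features. Falls outnumbered rises also among the 174 tested RNAs that overlap no other feature (21 to 10) and among SPNCRNA features that overlap coding genes (59 to 28), but not among coding genes (128 to 216). Within batch A, which held both media and whose libraries also gave the calls, all 15 were higher and all 51 lower. The number called moved with single libraries: it was 21 without wild type glucose replicate 1, 28 without glucose replicate 2, 29 without glucose-deficient replicate 2, 103 without glucose-deficient replicate 1 and 106 without either glucose-starved library, which changes only the estimate of spread and the batch terms. The comparison shares its glucose libraries with the others.

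The RNAs that rose in glucose-deficient cells included SPNCRNA.603 again, at 7.04 and 5.10 CPM (log2 fold change 4.63, SE 0.35, adjusted p = 3.14e-05), while ght3 was already at 507 and 677 CPM. From the deficient to the starved medium SPNCRNA.603 rose by a further 4.98 on the log2 scale and ght3 moved by 0.35. SPNCRNA.1120 (chrIII:230600-231934) lies between the hexose transporter genes ght8, divergent at 53 bases, and ght1, convergent at 353 bases. It was at 0.193 and 0.287 CPM in glucose, 6.61 and 2.52 CPM in glucose-deficient and 11.7 and 4.73 CPM in glucose-starved cells. Both poorer media lay above glucose (4.44, SE 0.52, adjusted p = 0.000373 in glucose-deficient cells). ght1 rose by 3.22 there and ght8 was not called (0.46).

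meu3 (SPNCRNA.07) and meu19 (SPNCRNA.29), named for their expression in meiosis, lie near opposite ends of chromosome III and share 61.7% and 61.3% of their 50-base stretches, so that part of their reads was counted for both. meu3 stood at 3.91 and 6.77 CPM in glucose, 67.8 and 151 CPM in glucose-deficient and 9.72 and 22.3 CPM in glucose-starved cells. Both glucose-deficient libraries lay above all others, with a log2 fold change of 4.33 (SE 0.45, adjusted p = 0.000199), and the value for meu19 was 4.20 (SE 0.43). omt3, which starts 1054 bases from the divergent mei2 with SPNCRNA.993 between them, was at 1.5 and 2.58 CPM in glucose, 47.6 and 12.2 CPM in glucose-deficient and 0.268 and 0.175 CPM in glucose-starved cells. It rose by 3.74 (SE 0.61, adjusted p = 0.00257) in the deficient medium and fell in starvation (log2 fold change -2.99, SE 1.11, adjusted p = 0.0336), with no overlap of its libraries with glucose in either. mei2 followed the rise (2.72, SE 0.31, adjusted p = 0.000346), at 138 and 102 CPM in glucose-deficient cells, and stood at 14.5 and 10.8 CPM after starvation against 17.6 and 13.5 CPM in glucose. The overlapping SPNCRNA.549 and SPNCRNA.1256 near the cytochrome oxidase gene cox13 rose by 4.20 and 4.17, and cox13 was not called (0.42). Without glucose replicate 1 their adjusted p was 0.0688 and 0.0691.

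Some of the largest falls in the deficient medium rested on single libraries. SPNCRNA.601, of which 93.8% of the stretches occur elsewhere, lies after pfl6, a gene for a cell surface glycoprotein of the flocculin family. It stood at 44.4 and 24.8 CPM with glucose and 1.88 and 5.45 CPM in glucose-deficient cells, without overlap (log2 fold change -3.14, SE 0.85, adjusted p = 0.0263), and pfl6 fell by 2.52. SPNCRNA.1300 near SPBC1348.08c fell by 3.29 (SE 0.84) and that gene by 2.48. Both calls were lost without either glucose library (adjusted p = 0.12 and 0.0788 for SPNCRNA.601, 0.112 and 0.0642 for SPNCRNA.1300) and without glucose-deficient replicate 1 (0.108 and 0.0869). SPNCRNA.523, which rested on no single library, fell from 6.66 and 7.80 CPM to 1.34 and 0.769 CPM (-2.66, SE 0.38, adjusted p = 0.00133) beside vms1 at -1.04, and SPNCRNA.1299 fell by 2.78. SPNCRNA.137 (-3.71) and SPNCRNA.1415 (-3.59) rested on 20 and 16 counts in glucose and lost their calls in DESeq2 (adjusted p = 0.0851 and 0.107) and without glucose replicate 1 (0.0837 and 0.159) or glucose-deficient replicate 1 (0.252 and 0.218). Of the 15 RNAs that rose, 5 had a nearest gene that rose and none one that fell, and of the 51 that fell, 11 had one that fell and none one that rose. For the 285 RNAs that were not called, the nearest gene rose in 9.12% and fell in 4.21%.

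Set directly against each other, glucose-starved cells had 134 RNAs higher (37.7%, against 19.6% of all features) and 39 lower (11%, against 16.3%) than glucose-deficient cells, with a median log2 difference of 0.83 against 0.00. SPNCRNA features that overlap a coding gene were higher in 34.6% and lower in 9.04%, so this imbalance was not particular to the intergenic RNAs. Within batch C, whose libraries also gave the calls, 132 of the 134 and 38 of the 39 kept their direction. fbp1-ot2 was higher by 10.04 (SE 0.83), SPNCRNA.30 by 8.68 (SE 0.73), and omt3 lower by 6.73 (SE 0.89, adjusted p = 6.36e-05). The 2 media thus differed in both directions at RNAs such as omt3 and fbp1-ot2, although both lack ample glucose.

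Sucrose and glucose gave no call. None of the 355 RNAs passed in edgeR in either direction (against 0.0149% of all features higher and 0.0% lower), 26 had an unadjusted p under 0.05, and DESeq2 called 1, SPNCRNA.603 (log2 fold change 2.38, SE 0.55, adjusted p = 0.0365). SPNCRNA.603 stood at 1.29 and 1.41 CPM in sucrose and SPNCRNA.1120 at 1.05 and 1.54 CPM. For both RNAs the sucrose libraries lay between those of glucose and those of the glucose-deficient medium.

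Loss of scr1 changed fewer intergenic RNAs, with more falls than rises among the calls over all libraries. In glucose 9 RNAs were higher (2.54%, against 1.27% of all features) and 22 lower (6.20%, against 0.568%). In sucrose 5 were higher (1.41%, against 0.986%) and 19 lower (5.35%, against 0.583%). Coding genes went the other way, with 62 higher and 5 lower in glucose and 49 and 5 in sucrose. Median log2 fold changes over the RNAs were -0.37 in glucose and -0.44 in sucrose, against -0.01 over all features in each. All 9 RNAs higher in glucose were higher within batch A and within batch B, as were the 5 in sucrose, and of the lower ones 22 and 20 of 22 in glucose and 19 and 18 of 19 in sucrose were lower within A and B. These within-batch pairs compare the disruption with wild type, since the deletion strains have no wild type partner in their batch. The pairs also entered the fit that gave the calls.

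Without the 2 scr1::ura4+ libraries that stand apart in their mating-type features, all 9 rises and 9 of the 22 falls in glucose were still called, and in sucrose all 5 rises and 11 of the 19 falls. The calls then numbered 11 higher and 9 lower in glucose, so that falls no longer outnumbered rises there, and 6 higher and 11 lower in sucrose. In glucose they were 8 higher and 9 lower without scr1::ura4+ replicate 1, 9 and 9 without replicate 2, and 7 and 8 among RNAs that overlap no other feature. All 22 and all 19 falls kept their direction without the pair that stands apart. Other refits kept the excess of falls: DESeq2 over all libraries gave 11 higher and 32 lower in glucose, and 6 and 37 in sucrose. Falls also outnumbered rises in both media without one of the glucose-deficient or glucose-starved libraries. The count in glucose was 14 without wild type glucose replicate 1, 12 without replicate 2, 17 and 18 without the scr1::ura4+ libraries in turn, and 50 to 56 without one of the glucose-deficient or glucose-starved libraries. In sucrose it was 8 without either wild type sucrose library, 11 and 15 without the scr1::ura4+ libraries, and 57 to 58 without one of the glucose-deficient or glucose-starved libraries.

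omt3 had the largest rise in the mutant. It stood at 1.5 and 2.58 CPM in wild type glucose and at 124, 94.4, 166 and 147 CPM in the mutant, and at 5.62 and 5.35 CPM in wild type sucrose and 151, 107, 181 and 100 CPM in the mutant. All 8 mutant libraries lay above every wild type library of any medium (log2 fold change 6.04, SE 0.61, adjusted p = 0.000122 in glucose, and 4.63, SE 0.55, adjusted p = 0.000537 in sucrose). Without the pair that stands apart the values were 6.58 and 5.08. mei2, on the other side of SPNCRNA.993, rose by 3.11 and 2.31, and the nearest gene omt2, 341 bases downstream on the same strand, was not called (-0.18 and -0.29).

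SPNCRNA.603 was at 3.54 to 4.94 CPM in the mutant in glucose, against 0.29 and 0.229 CPM in wild type, and at 3.20 to 7.99 CPM in sucrose. The groups did not overlap in either medium (4.16, SE 0.33, adjusted p = 2.38e-05 in glucose, and 2.16, SE 0.25, adjusted p = 0.000537 in sucrose). Its neighbour ght3 rose by 4.33 and 2.62, to 91.1 to 118 CPM over the mutant libraries. SPNCRNA.1120 was at 2.43 to 4.59 CPM in the mutant in glucose, above both wild type libraries (3.99, SE 0.49, adjusted p = 0.000541). In sucrose it was higher by 1.95 (SE 0.39, adjusted p = 0.0229), a call lost without either wild type library (0.238 and 0.109) or without scr1::ura4+ replicate 1 (0.0564). ght1 rose by 3.60 and 2.88 and ght8 was not called (0.95 and 0.85).

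meu3 and meu19 rose in the mutant in glucose, by 2.50 and 2.54, and were not called in sucrose (0.76 and 0.82). The remaining risers were SPNCRNA.371, a copy of centromeric repeats with all of its stretches elsewhere, the overlapping SPNCRNA.1559 and SPNCRNA.410 (3.75 and 3.52 in glucose), and SPNCRNA.1278 (1.53) beside the importin gene sal3. SPNCRNA.1559 and SPNCRNA.410 had 5 and 3 counts in wild type glucose, and their calls in glucose were lost without glucose replicate 1 (adjusted p = 0.132 and 0.269). They lie between qcr10, which was not called, and rsv1, a gene for a zinc-finger factor 1913 bases downstream of SPNCRNA.1559 on the same strand, which rose by 4.58 in glucose and 4.31 in sucrose. SPNCRNA.371 rose by 2.26 and 2.85, and its call in sucrose was lost without wild type sucrose replicate 1 (0.0681). In sucrose the call of SPNCRNA.1559 was lost without either wild type library (0.254 and 0.163) or scr1::ura4+ replicate 1 (0.104). No difference between the media was shown: the test of the scr1 effect in sucrose minus that in glucose called 0 of the 37 RNAs changed in either medium in edgeR, with 5 at an unadjusted p under 0.05, and the lowest adjusted p was 1.0.

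SPNCRNA.113 (chrII:4129796-4130288) had the strongest fall with well-counted libraries. It lies 339 bases from the divergent gene cnp3, which encodes the kinetochore protein CENP-C, and overlaps another non-coding RNA on its strand. It stood at 29.1 and 27.7 CPM in wild type glucose, 30.0 and 35.7 CPM in wild type sucrose and 1.38 to 2.35 CPM in all 8 mutant libraries. Its levels in glucose-deficient (17.3 and 20.8 CPM) and glucose-starved cells (47.6 and 17.5 CPM) also lay above every mutant library. The log2 fold changes were -3.85 (SE 0.31, adjusted p = 2.38e-05) and -3.78 (SE 0.31, adjusted p = 4.63e-05). cnp3 fell too, by 2.47 (SE 0.33, adjusted p = 0.00115) and 2.50 on the log2 scale, from 99.6 and 103 CPM in wild type glucose to 29.5, 9.93, 12.8 and 14.2 CPM. On the other side of SPNCRNA.113, at 587 bases, abp2 fell as well (-2.26 and -2.13).

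SPNCRNA.322, an RNA of 2179 bases divergent from the flocculin-family gene pfl3, stood at 47.7 and 57.7 CPM in wild type glucose and at 7.59 to 8.78 CPM in the mutant, without overlap (-2.70, SE 0.36, adjusted p = 0.000998, and -2.33 in sucrose). SPNCRNA.780 was at 11 and 10.2 CPM in wild type glucose, 12 and 13.4 CPM in sucrose and 1.47 to 2.59 CPM in the mutants (-2.19, adjusted p = 9.63e-05, and -2.80, SE 0.21, adjusted p = 2.72e-05). It was also low in glucose-starved cells, at 2.21 and 1.40 CPM. Its nearest gene pcs2 lies 2251 bases away and was not called. SPNCRNA.385 was at 2.22 and 0.803 CPM in wild type glucose and at most 0.131 CPM in any mutant library (-4.59, SE 0.62, adjusted p = 0.0012, with 3 counts in the mutant, a ratio of 31.8 lower, 10.4 to 158). In sucrose it fell by 4.14, a call lost without wild type replicate 1 (0.0686) or scr1::ura4+ replicate 1 (0.0564). It was at 2.61 and 2.89 CPM in starvation. SPNCRNA.944 fell by 2.93 and SPNCRNA.1424 by 2.79 in glucose, and SPNCRNA.1424 lost its call without glucose replicate 2 (adjusted p = 0.0656). In sucrose SPNCRNA.782 fell by 3.18 and SPNCRNA.1165 by 2.57. The call of SPNCRNA.782 was lost without the pair that stands apart (0.0804) or without either wild type sucrose library (0.0985 and 0.172). That of SPNCRNA.1165 was lost without either wild type sucrose library (0.06 and 0.138) or scr1::ura4+ replicate 1 (0.0911).

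**Figure D4:**
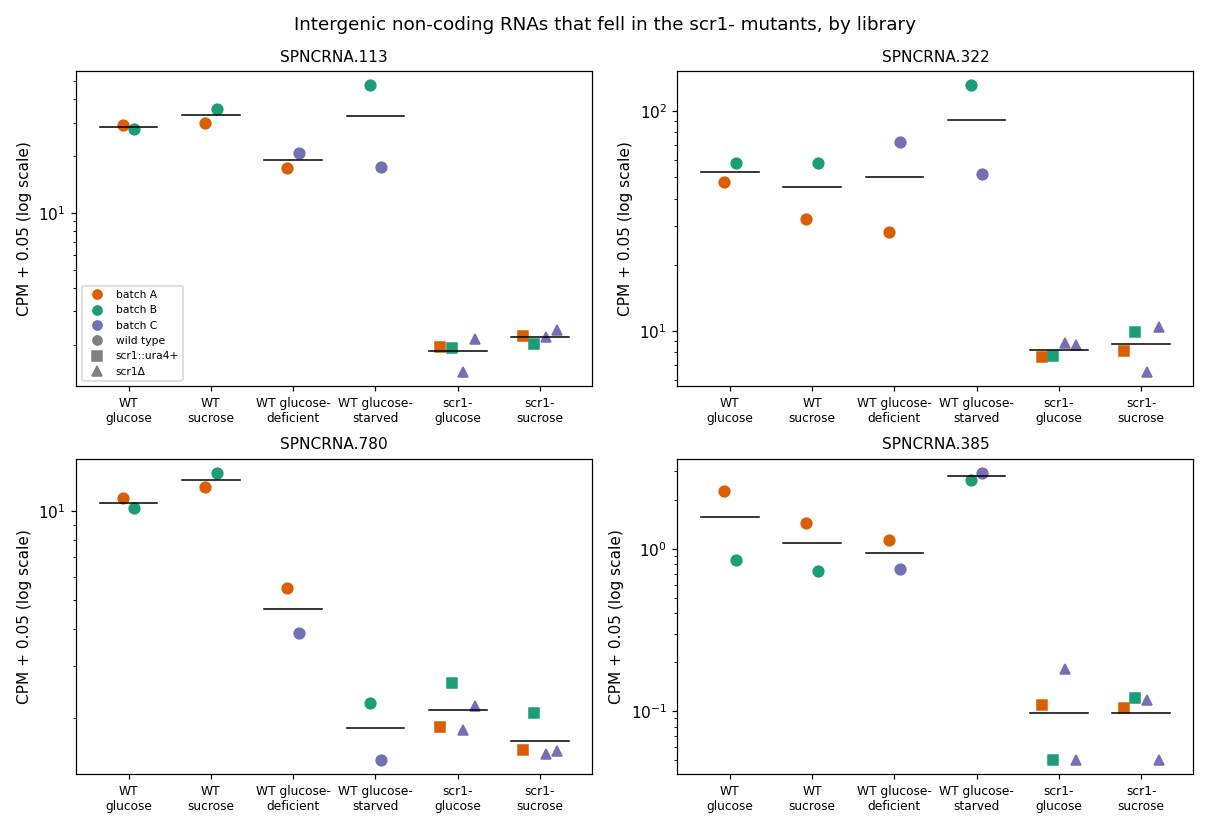
Each point is 1 library, with CPM plus 0.05 on a log axis, coloured by batch and shaped by genotype, and the bars are group means. In all 4 panels the 8 scr1- libraries lie below every wild type library in glucose and sucrose, and for SPNCRNA.113, SPNCRNA.322 and SPNCRNA.385 below the glucose-deficient and glucose-starved libraries as well.

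Few coding genes were called in the mutant, and few called RNAs lay next to one. In glucose, 1 of the 9 higher RNAs had a nearest gene that rose (SPNCRNA.603 with ght3) and 1 of the 22 lower ones a nearest gene that fell (SPNCRNA.113 with cnp3), and the same pairs were the only such pairs in sucrose. For the 320 RNAs not called in glucose, the nearest gene rose in 3.12% and fell in 0.0%. Over all 351 pairs the fold changes in glucose had a Pearson r of 0.39, with 0.59 for 151 divergent and -0.13 for 49 convergent pairs, again as a description. Of the RNAs higher in the mutant in glucose, 5 were also higher in sucrose (55.6% of the 9 and all of the 5), and of the lower ones 13 were on both lists (59.1% of 22 and 68.4% of 19). Side by side with the medium shifts, which share the wild type glucose libraries, 6 of the 9 higher RNAs rose in glucose-deficient cells, and 6 rose and 2 fell in glucose-starved cells. Of the 22 lower RNAs, 7 fell in glucose-deficient cells and none rose, and 8 fell and 1 rose in glucose-starved cells.

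Of the 32 intergenic RNAs with a name of their own, 28 were tested. Those changed by starvation included mrp1, the RNA of the RNA-processing enzyme RNase MRP, which went from 5.65 and 17.0 CPM in glucose to 41.2 and 45.0 CPM (log2 fold change 1.98, adjusted p = 0.00055), and snoR61, from 38.3 and 38.4 CPM to 81.8 and 160 CPM (1.46, adjusted p = 0.00107). Both starved libraries lay above both glucose libraries for each RNA. prl26 (5.25), prl2 (1.56) and prl9 (1.20), of the prl series of polyadenylated RNAs without a long reading frame, rose in starvation, while prl24 (-2.62), prl38 (-1.35) and meu11 (-2.42) fell. prl24 and prl38 fell in glucose-deficient cells too (-2.16 and -1.42), prl38 fell in the mutant in glucose (-1.26) and meu11 in the mutant in sucrose (-1.74). Both of these mutant calls were lost without the pair of libraries that stands apart (prl38 at -0.95, adjusted p = 0.179, and meu11 at -1.53, adjusted p = 0.132). The centromeric IRC1-L and IRC1-R, which share nearly all of their sequence, and nam5 and nam6 were called in no comparison, nor was srp7, the RNA of the signal recognition particle.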

How the data were processed

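Total RNA depleted of ribosomal RNA was sequenced from 16 cultures, stated by the study to be independent biological replicates. Per the authors' methods and the submitters' processing notes, reads were trimmed with cutadapt 1.9.1 and aligned with TopHat2 2.1.1 to the ASM294v2 genome. The deposited values are raw counts per feature, made by the authors with featureCounts 1.5.2 and not normalised. Reads were counted on every feature they overlapped and at every place they mapped, with strand in batches B and C only. This raises the counts of overlapping and repeated RNAs.

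The 6691 features that passed edgeR's expression filter at a minimum count of 10 were fitted in R 4.3.3 with edgeR 4.0.16 (quasi-likelihood test, TMM scaling, terms for group and batch, all 16 libraries, 8 residual degrees of freedom, common dispersion 0.0337). P-values were adjusted by Benjamini-Hochberg over all features tested, and a call needed an adjusted p under 0.05 and a log2 fold change beyond 1 in size. The log2 CPM of single libraries used a prior count of 2. Plain differences between group means added a smaller constant to the counts. Ratios of pooled counts carry 95% intervals for counting error only. Depth, from 14305848 to 18607823 counts per library, sets the floor of 3 counts used for RNAs at 0. The nearest coding gene was found from the start and end columns. Sequences were read from the RefSeq genome ASM294v3 only for the 368 RNAs with the same start and end there.

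Named RNAs were those called with no overlap of libraries, by size of change (8 each way for starvation, 6 for the glucose-deficient medium, 5 for each mutant comparison, 3 for the others), those with a symbol, the 5 with the highest CPM per kilobase in wild type glucose, and their nearest genes. RNAs next to a listed pathway gene are named with those lists, and SPNCRNA.780 in glucose and SPNCRNA.1278 were named after their values were seen. The RNAs and lists were chosen with earlier results of these data known. Alternatives were DESeq2 1.42.0, its size factors, no filter, no batch term, a replicate block, stranded libraries alone, each library left out, RNAs overlapping no other feature, other definitions of the neighbour, and, chosen after seeing the data, leaving out the pair of libraries that stand apart. Replicate numbers did not pair the samples throughout: deviations correlated at 0.94 between wild type glucose and sucrose, which share batches, and at 0.00 between wild type glucose and glucose-starved cells.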

Additional observations from a re-analysis of the deposited data

Results flagged for a closer look

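In 6 groups of 4 scr1- libraries, 1 library lay far from the other 3, by a gap to the nearest value whose share of the whole range was above Dixon's critical value for 4 samples, a limit that chance passes in about 1 of 20 groups. That rate is for like samples, whereas these groups mix disruption and deletion strains and batches. The number of groups checked is not given, so the 6 cannot be set against it. In glucose the scr1::ura4+ library of batch A was the highest for SPNCRNA.1559 (gap 0.986 of the range), SPNCRNA.410 (0.862) and SPNCRNA.1120 (0.859). In sucrose the scr1::ura4+ library of batch A was the highest for SPNCRNA.1559 (0.839) and SPNCRNA.782 (0.889). For SPNCRNA.780 in sucrose the highest was the scr1::ura4+ library of batch B (0.924). SPNCRNA.1559 and SPNCRNA.410 overlap and share reads, so they are not separate cases. Batch A is unstranded, and the part of strand in these values was not tested.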

How the results depend on the processing

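No fold change of a named RNA turned its direction. Of 1239 refits of 54 fold changes in 38 RNAs, 1141 kept their side of the threshold and 98 lost it, 18 of them with the stranded libraries alone, 14 with no batch term, 10 with the replicate block, 5 with DESeq2 and 3 without the pair that stands apart. Of the 174 tested RNAs that overlap no other feature, 74 were called in starvation (178 of all 355) and 31 in the glucose-deficient medium (66). Between starved and deficient cells 81 were called (173), in the mutant in glucose 15 (31) and in sucrose 11 (24). The count for the glucose-deficient medium was 22 with no batch term, 31 with the replicate block in place of batch and 42 with stranded libraries alone. For the mutant in glucose it was 13, 19 and 9 under these, and 20 without the pair that stands apart. For the mutant in sucrose it was 7, 13 and 6, and 43 with DESeq2, which called 1 RNA between sucrose and glucose where edgeR called 0. With 1 library left out in turn the counts ran from 21 to 106 (glucose-deficient), 12 to 56 (mutant, glucose), 8 to 58 (mutant, sucrose), 141 to 187 (starved) and 158 to 180 (starved against deficient). Pairs of RNA and nearest gene called in the same direction numbered 73 in starvation and 19 with gaps over 500 bases, 60 and 17 between starved and deficient cells, and 16 in the glucose-deficient medium, with 10 for the nearest gene on the same strand, 9 for gaps of at most 500 bases and 7 beyond. In each mutant comparison they numbered 2, with 1 on the same strand and 0 beyond 500 bases. The cause of these moves was not tested. RNAs with under 20 counts in a group, such as SPNCRNA.96, SPNCRNA.410 and SPNCRNA.1415, are limited by depth.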
